A study of Rattus norvegicus with 56 samples.

Results

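Intermittent theta burst stimulation (iTBS) was compared with sham stimulation 2 h after the stimulation had ended, in primary cultures of rat hippocampal neurons. The comparison took all samples that the labels give as iTBS or sham at 2 h, which were 4 iTBS and 4 sham samples, 8 of the 56 samples of the series, each hybridized to 1 one-color Agilent rat expression array. All cultures came from Sprague-Dawley embryos of age E18 and were grown on coated coverslips in a serum-free neuronal medium. The iTBS dishes received trains of short pulse bursts in repeated blocks from a coil beneath them, at a low fraction of the stimulator's output, and sham dishes were kept at a distance from the coil. No source says whether replicates were separate dissections, so p-values measure only the spread between these samples, which may be technical.

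Repetitive transcranial magnetic stimulation induces brief currents in nerve tissue, and theta burst patterns imitate the rhythm of hippocampal firing. When neurons fire, calcium entry and the cAMP and MAP kinase pathways switch on immediate-early genes within minutes through factors that are already present, such as CREB and SRF. The products of these genes, among them the AP-1 proteins FOS, FOSB and JUNB, then act on later genes, including those of synaptic effectors such as BDNF and ARC. At 2 h the transcripts of the earliest genes have usually passed their peak, while later targets can still be raised.

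Levels are log2 processed signals turned into z-scores within each array and then stretched by 4.06, the median SD over arrays. A level of 0 is thus the array mean, and differences read as log2 changes. The 8 arrays correlated between 0.958 and 0.991 with each other. Samples with the same replicate number came from the same series of sample numbers and deviated from their group means together, and they are called pairs 1 to 4 below. The iTBS array was the dimmer one in every pair. The 75th percentile of the processed signal was 8109 intensity units for sham and 4074 for iTBS in pair 1, 5112 and 4273 in pair 2, 6239 and 1896 in pair 3, and 9729 and 6693 in pair 4. The iTBS array of pair 3 was the dimmest of all 55 usable arrays in the series and had 1071 outlier spots, against 234 to 347 on the other 7 arrays. The arrays of pair 1 shared a slide, and those of the other pairs lay on different slides.

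Neuronal markers were present on every array. Tubb3, a neuronal tubulin, had a level of 8.73 ± 0.71 in sham and 8.65 ± 0.45 in iTBS (SD, n = 4 each), and all 7 neuronal markers were well above background on all 8 arrays. Markers of other cells were present too, although the cultures are described as neuronal. The 4 astrocyte and the 4 oligodendrocyte lineage markers were well above background on all 8 arrays, with Slc1a3, a glial glutamate transporter, at 9.05 ± 0.59 in sham and 9.47 ± 0.66 in iTBS. Of the 4 microglial markers, Cx3cr1 and Itgam were well above background everywhere, Aif1 on 4 of the 8 arrays and Csf1r on 1. Summed over the astrocyte markers, the log2 level ran from 9.39 to 10.2 in sham and from 9.66 to 10.5 in iTBS. The oligodendrocyte sum ran from 6.53 to 10.1 in sham and from 6.89 to 10.4 in iTBS, and the microglial sum from 4.14 to 5.63 and from 4.52 to 5.78. Of the 3 endothelial markers 2 were well above background on all 8 arrays, as were all 4 fibroblast and mural markers. The fibroblast and mural sum ran from 5.15 to 8.06 in sham and from 5.25 to 7.92 in iTBS. The groups overlapped in each of these sums, and their part in the results below was not tested. Since the RNA of whole dishes was measured, fewer cells of a type and less RNA per cell cannot be told apart.

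Promoters are shown for a few of the activity-regulated and clock genes that were lower after iTBS in all 4 pairs. Their windows hold a cAMP response element or an E-box. The genes shown were picked for these motifs, which the windows found for Fosb, Junb, Npas4, Per2 and Bmal1 did not hold. The sequences are those of RefSeq (GRCr8), 300 bases each, from 250 before the transcription start to 50 after it, written 5′ to 3′ in the direction of the gene. Capitals mark the cAMP response element TGACGTCA and the E-box CACGTG, the site bound by the clock factors BMAL1 and CLOCK. Both motifs read the same on either strand, and they do not overlap each other here.
Dusp1, chr10:17184603-17184902, strand +: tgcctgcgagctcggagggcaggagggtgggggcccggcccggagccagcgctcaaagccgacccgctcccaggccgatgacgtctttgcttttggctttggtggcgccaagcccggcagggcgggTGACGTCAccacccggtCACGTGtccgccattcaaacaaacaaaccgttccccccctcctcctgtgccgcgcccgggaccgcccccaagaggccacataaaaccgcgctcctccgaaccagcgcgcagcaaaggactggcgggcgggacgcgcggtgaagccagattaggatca
Maff, chr7:112792537-112792836, strand +: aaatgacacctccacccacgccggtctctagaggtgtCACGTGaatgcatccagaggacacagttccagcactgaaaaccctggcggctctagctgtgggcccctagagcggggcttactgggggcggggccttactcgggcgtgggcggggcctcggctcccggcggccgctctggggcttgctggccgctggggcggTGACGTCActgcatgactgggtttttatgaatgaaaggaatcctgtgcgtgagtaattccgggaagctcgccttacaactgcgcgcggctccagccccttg
Ciart, chr2:186112197-186112496, strand -: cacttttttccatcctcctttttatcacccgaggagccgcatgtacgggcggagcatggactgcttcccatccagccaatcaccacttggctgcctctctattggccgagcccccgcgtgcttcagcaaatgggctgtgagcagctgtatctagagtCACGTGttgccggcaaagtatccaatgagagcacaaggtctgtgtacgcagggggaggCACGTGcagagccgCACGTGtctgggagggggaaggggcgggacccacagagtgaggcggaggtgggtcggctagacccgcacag
Bhlhe40, chr4:143174200-143174499, strand +: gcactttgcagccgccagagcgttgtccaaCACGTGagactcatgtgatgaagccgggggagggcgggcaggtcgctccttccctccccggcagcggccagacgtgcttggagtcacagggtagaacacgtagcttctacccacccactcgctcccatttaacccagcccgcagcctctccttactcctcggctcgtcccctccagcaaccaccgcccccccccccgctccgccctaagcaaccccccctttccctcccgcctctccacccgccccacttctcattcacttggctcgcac
The cAMP response element was found in 1.83% of all 33469 promoters of this length (2.75% of those of genes tested), in 5 of the 23 promoters found for the immediate-early transcription factors described below, and in 1 of the 6 found for those of them that were lower in all 4 pairs. The E-box was found in 6.42% of all promoters (8.22% for genes tested), and in 4 of the 18 promoters of the circadian clock genes. Ciart had 3 E-boxes, and Dusp1 and Maff had 1 of each motif. The AP-1 site TGANTCA, searched on both strands, was in 7.33% of all promoters and in none of the 23. Fos and Klf2 had no entry in the promoter table.

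No probe differed between iTBS and sham at 2 h by limma at an adjusted p under 0.05. Of the 35688 probes tested, 0 passed (0%), and 758 (2.12%) had an unadjusted p under 0.05, with 369 of them higher and 389 lower after iTBS. With a replicate block, which compares the samples of a series at the same time and at 2 h thus within pairs, 0 probes passed again, the smallest adjusted p was 0.186, and 4062 probes (11.4%) had an unadjusted p under 0.05. That count was 1098 without pair 3 and 3536 to 5954 without any other pair. With 1 term per sample series over all time points, 0 probes passed and 2193 had an unadjusted p under 0.05. The blocked fit of the 8 arrays alone gave 0 probes as well, with 2589 (7.25%) at an unadjusted p under 0.05. Of the 13880 genes tested with 1 probe each, 684 (4.93%) were higher and 1902 (13.7%) were lower in all 4 pairs, and the 4 iTBS levels lay above all sham levels for 53 genes (0.382%) and below them for 89 (0.641%). Without pair 1, 2, 3 or 4 the share lower in the other 3 was 18.7%, 27.5%, 17.8% or 20.7%. Since no probe passed, every gene below is given by its values and not as a change. The published criteria, applied to the deposited z-scores as far as they are stated, called 2 of 45178 probes (0.00443%), Tmsb10 higher and Pkdcc lower. Leaving out single arrays gave 0 (without the sham array of pair 3) to 26 (without the iTBS array of pair 4). The paper counts far more changed genes for iTBS at 2 h, in both directions. The criteria as applied here thus did not reproduce its counts, and the reason was not tested.

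Immediate-early transcription factors were lower after iTBS in all 4 pairs for 8 of the 28 tested (Fos, Fosb, Junb, Npas4, Klf2, Klf6, Maff and Bhlhe40) and higher in all 4 for none. The share of all genes lower in every pair was 13.7%, and it was higher among genes of a low level (26% between levels 0 and 2, 20.8% between −3 and 0), where all of the 8 but Klf6 lie. Without pair 3, the pair with the dimmest array, 13 of the 28 were lower in the other 3 pairs, against 17.8% of all genes. Without pairs 1, 2 and 4 there were 8, 9 and 8 of the 28, against 18.7%, 27.5% and 20.7%. With the replicate block 6 of the 28 were lower and none was higher at an unadjusted p under 0.05, against 6.44% and 6.43% of all genes. The median change of the 28 was −0.08, against −0.07 over all genes tested. Their levels differed far more between pairs than between sham and iTBS.

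Fosb encodes an AP-1 subunit that builds up in active neurons. Its level in sham was −0.72, −2.54, 2.42 and −0.25 in pairs 1 to 4, and in iTBS it was −2.54, −3.34, 1.53 and −0.58. The iTBS level was the lower one in each pair, the groups overlapped, and the change was −0.96 (95% interval −1.72 to −0.21 with the replicate block, adjusted p = 0.38). It was −0.28 with the slide as a block and −0.39 after normexp background correction, and on 1 of the 8 arrays the Fosb probe was not well above background.

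Fos, the best known marker of recent firing, had sham levels of 2.64, −1.08, 4.11 and 2.13 and iTBS levels of 2.28, −1.34, 3.51 and 1.93. The sham arrays spanned 5.19 log2 units, whereas the pairs differed by only 0.21 to 0.59, with iTBS the lower one. The change was −0.35 (95% interval −0.93 to 0.22, adjusted p = 0.61 with the block) and −0.18 with the slide as a block.

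Junb, another AP-1 subunit, was at 0.64, −1.01, 2.67 and 0.62 in sham and at 0.02, −1.02, 1.32 and 0.02 in iTBS. It was nearly equal in pair 2 and lower by 0.60 to 1.36 in the other pairs (change −0.65, adjusted p = 0.40 with the block). Npas4, a neuron-specific factor that responds to calcium entry, was lower by 0.22, 0.58, 0.38 and 1.36 in pairs 1 to 4, from sham levels between −4.28 and 2.15, and its probe was well above background on 6 of the 8 arrays. The Npas4 change was −0.64, and −0.12 after normexp. Klf2, a Krüppel-like factor, was lower by 1.07, 0.23, 1.10 and 0.37.

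Egr1 and Nr4a1, which also rise quickly after firing, did not move one way. The Egr1 level was 4.12, 1.68, 5.03 and 2.97 in sham and 3.83, 1.46, 5.57 and 2.85 in iTBS, and its change was −0.02 (95% interval −0.65 to 0.60). The change of Nr4a1 was 0.01 (−0.28 to 0.31). Pair 3 was the pair in which both were higher after iTBS by more than 0.3. Egr3 had a change in the other direction, 0.61 (95% interval −0.20 to 1.43), which came mainly from pair 3, where it was 2.11. Its change was 0.93 with 75th percentile scaling and 0.15 after normexp, and its probe was well above background on 2 of the 4 arrays in each group.

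**Figure D1:**
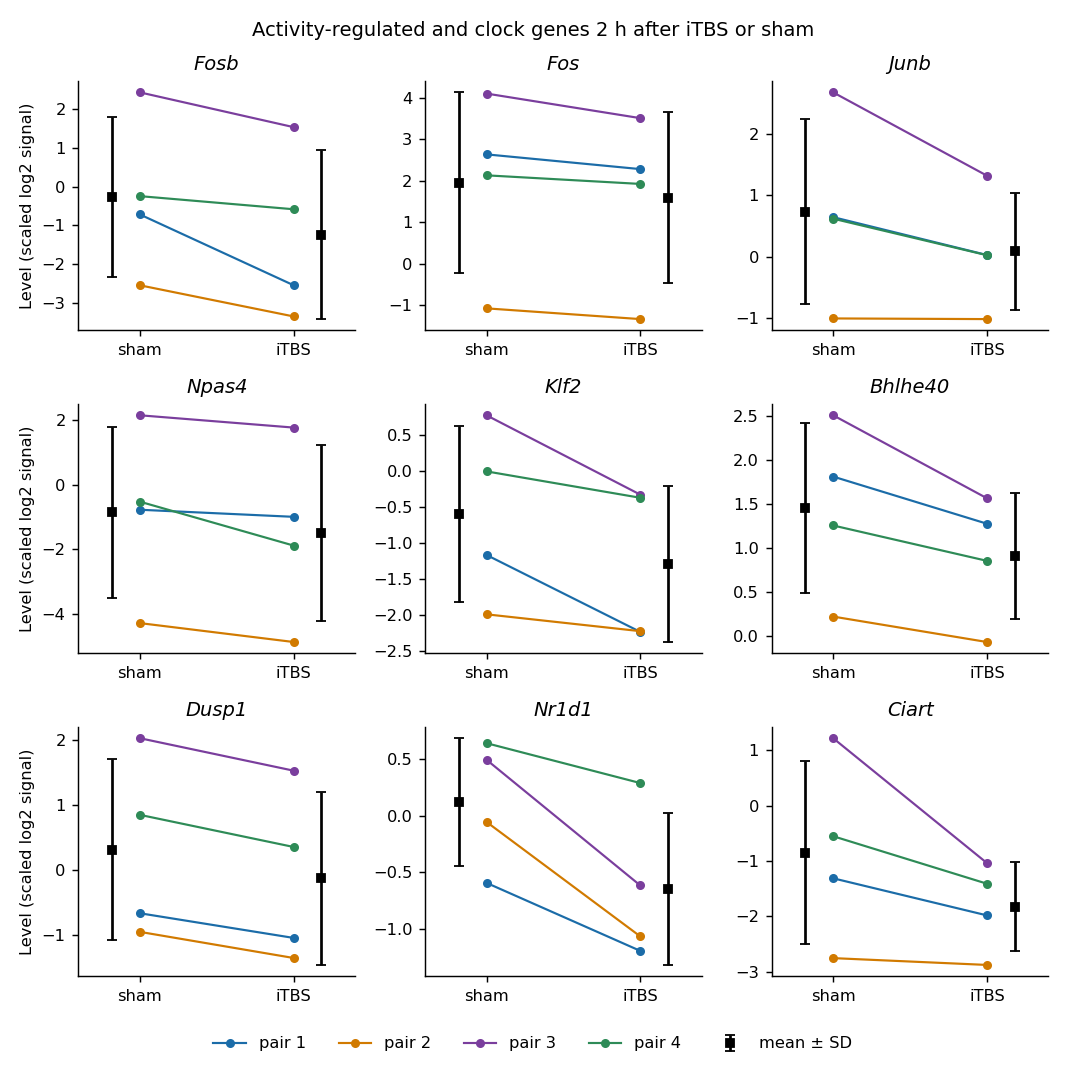
Level (scaled log2 signal, y axis) of 9 activity-regulated and clock genes in sham and iTBS arrays at 2 h; points joined by a line are a pair, and black squares are group means with their SD (n = 4). Every line slopes down, since the genes were picked for this. For Fos, whose sham levels run from −1.08 to 4.11, the pairs lie much farther apart than the ends of a line. For Nr1d1, with pair changes of −0.35 to −1.11, they do not.

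Among the 34 activity-induced effectors tested, 7 were lower in all 4 pairs (Arc, Arl4d, Bdnf, Crh, Dusp1, Nrn1 and Penk) and none was higher in all 4, and the median change was −0.07. Over all genes the share lower in every pair was 13.7%, with 18.2% between levels 2 and 4, where the median member lies (3.19), and 20.8% between −3 and 0. Dusp1, a phosphatase that switches MAP kinases off, was lower by a like amount in each pair. Its sham levels were −0.66, −0.94, 2.02 and 0.85, its iTBS levels were −1.04, −1.34, 1.52 and 0.36, so that the pairs differed by 0.38 to 0.50 (change −0.44, adjusted p = 0.40 with the block). With the slide as a block the Dusp1 change was −0.036, and after normexp it was −0.13. Arc, a synaptic protein needed for lasting plasticity, was at 6.03, 2.03, 5.82 and 2.90 in sham and at 4.99, 2.02, 5.69 and 2.83 in iTBS, so that pair 1 alone gave a difference over 0.13. Bdnf, a secreted neurotrophin, was lower by 0.46, 0.05, 0.57 and 0.30 (change −0.35, 95% interval −0.74 to 0.05, and −0.12 with the slide as a block).

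Homer1, a postsynaptic scaffold, had a change of 0.08 (95% interval −0.12 to 0.29). Nptx2, a secreted pentraxin that clusters AMPA receptors, was lower in 3 pairs and higher by 0.08 in pair 2 (change −0.28). Penk, the enkephalin precursor, was lower by 0.49, 0.04, 0.71 and 0.52. A dimmer Penk probe, well above background on 2 of the 8 arrays, was higher in 2 pairs and lower in the others.

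The circadian clock list had 5 of its 18 tested genes lower in every pair (Bhlhe40, Bmal1, Ciart, Nr1d1 and Per2), none higher in every pair, and a median change of −0.13. The share over all genes was 13.7%, 20.8% between levels −3 and 0 and 26% between 0 and 2. Bhlhe40 stands on the immediate-early list as well. Nr1d1, the nuclear receptor that represses Bmal1, was at −0.60, −0.06, 0.49 and 0.64 in sham and at −1.20, −1.07, −0.62 and 0.29 in iTBS. It was lower in each pair by 0.35 to 1.11, and its change was −0.77 (95% interval −1.25 to −0.29, adjusted p = 0.38 with the block), or −0.41 after normexp. Ciart, a repressor of BMAL1 and CLOCK whose promoter is shown above, was at −1.31, −2.76, 1.22 and −0.55 in sham and at −1.98, −2.88, −1.04 and −1.41 in iTBS. Its change was −0.98, without pair 3 it was −0.55 and after normexp −0.41, and its probe was well above background on 6 of the 8 arrays. Per2, a core repressor of the clock, was equal in pair 2 to 2 decimals (2.50 on both arrays) and lower by 0.32 to 0.74 in the others.

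Transcripts of the translation and energy machinery were higher after iTBS on the z-score scale, by amounts that differed between the pairs and the scalings. All 75 cytosolic ribosomal protein genes tested had a higher mean, 66 of them in all 4 pairs (background 4.93%), with a median change of 0.51. Their median level lay just above 10, and of all genes 36.8% between levels 8 and 10 and 90.2% above level 10 were higher in every pair. For 11 of the 75 all iTBS levels lay above all sham levels (background 0.382%), among them Rps2, Rps29 and Rpl32. Rps29, a protein of the small subunit, was at 10.4, 10.7, 10.3 and 10.2 in sham and at 11.1, 11.0, 11.2 and 10.8 in iTBS. Rplp1, Rplp0 and Rps12 had the largest changes of the list, 0.86, 0.83 and 0.77. Of the 71 oxidative phosphorylation genes tested, 63 had a higher mean and 27 were higher in every pair (median 0.29). Without pair 2, the pair whose arrays differed least in brightness, 52 of the 71 were higher in the other 3 pairs, against 17.4% of all genes. Without pairs 1, 3 and 4 the share of all genes was 9.06%, 7.32% and 8.36%, and 29, 34 and 27 of the 71 were higher. Cox6c, a subunit of cytochrome c oxidase, was higher by 0.61, 0.19, 1.33 and 0.59.

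Of the 82 genes with a mean level above 10, 74 were higher in all 4 pairs and 0 were lower in all 4. Over the 162 probes with a mean level above 10, the median change was 0.56, 0.20, 1.13 and 0.57 in pairs 1 to 4. It was smallest in pair 2, where the iTBS array was the least dim against its sham partner, and largest in pair 3, where it was the dimmest. The ratio of sham to iTBS brightness was 1.99 in pair 1 and 1.45 in pair 4. The medians of the oxidative phosphorylation genes in these pairs were 0.22 and 0.37. Over the 6101 probes between levels 2 and 4 the median change was −0.07, −0.06, −0.22 and −0.03 in pairs 1 to 4. Quantile normalization gives all arrays the same distribution, which takes out nearly any shift shared by the brightest probes, whatever its source. After it the medians of the brightest probes lay between −0.0047 and 0.07. The median of the ribosomal genes was then 0.0028, with 3 of 75 higher and 2 lower in every pair (background 4.16% and 10.6%), and that of the oxidative phosphorylation genes 0.03, with 4 of 71 higher and 8 lower. With 75th percentile scaling the medians were 0.25 and 0.11, with 29 of 75 and 8 of 71 higher in every pair (background 5.97%), and after normexp background correction they were 0.08 and 0.05. The part of array brightness in these differences was not tested.

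The counts of activity and clock genes also moved with the scaling. After quantile normalization 6 of the 28 immediate-early factors were lower in all 4 pairs (background 10.6%), namely Bhlhe40, Fos, Fosb, Junb, Klf2 and Npas4, 5 with 75th percentile scaling (background 7.88%) and 7 after normexp (background 9.74%). The 7 of 34 effectors lower in every pair became 5 after quantile normalization, 2 with 75th percentile scaling and 3 after normexp, the last 2 counts below the shares of all genes (7.88% and 9.74%). The 5 of 18 clock genes became 5, 4 and 5. The change of Fosb was −0.93 and that of Nr1d1 −0.70 after quantile normalization, but −0.39 and −0.41 after normexp.

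**Figure D2:**
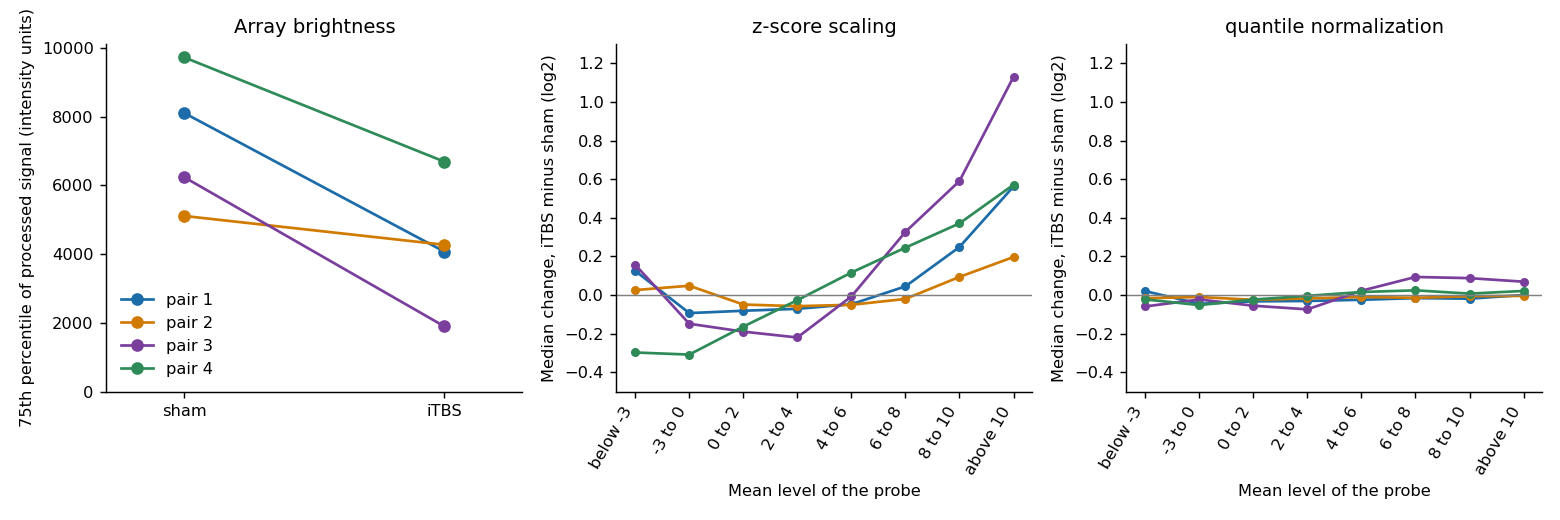
Left, 75th percentile of the processed signal (intensity units) of the sham and iTBS array of each pair; middle and right, median log2 change (iTBS minus sham) of probes grouped by their mean level, with z-score scaling and with quantile normalization, 1 line per pair. Every iTBS array is dimmer than its sham partner, and the z-score change climbs to between 0.20 and 1.13 for the brightest probes. After quantile normalization, which gives all arrays the same distribution, the change stays within 0.0933 of 0 in every class.

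The genes with the largest changes, chosen by a rule that asked for probes well above background on all 8 arrays, the same direction in all 4 pairs and an unadjusted p under 0.01 with the replicate block, fell into the same split by level. Among the 10 that were higher were Ly49s5, Actg1, Tuba1a, Ceacam9, Tubb2b, Hspa8, Igtp and Tmsb10. All of these but Ly49s5 had mean levels above 10. Actg1, a cytoplasmic actin, was at 10.9, 10.8, 9.81 and 9.93 in sham and at 11.5, 11.1, 12.6 and 10.6 in iTBS. Its change of 1.12 (adjusted p = 1.0 by limma, 0.38 with the block) was 0.56 without pair 3 and 0.30 after quantile normalization. Tuba1a and Tubb2b are tubulins of growing neurites, Hspa8 is a chaperone that every cell makes, and Tmsb10 binds actin monomers. Tmsb10 was the one of the 8 whose groups did not overlap, and its change of 0.88 was 0.04 after quantile normalization. Ly49s5, named for a receptor of natural killer cells, was higher by 1.64, 1.11, 2.05 and 0.38, from sham levels between −2.53 and −1.39, and by 1.39 on average after quantile normalization but 0.53 after normexp.

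The 10 that were lower were Tsbp1, Itga7, Nhsl3, Wwox, Nr1d1, Acan, Cdc42ep1, Sphk1, Mov10 and Tgm1, and 9 of them had mean levels below 1. Itga7, a laminin-binding integrin, was lower by 0.70, 0.35, 1.61 and 0.76. Acan, the aggrecan core protein of perineuronal nets, was at −0.81, −1.28, 0.37 and −0.34 in sham and at −1.31, −1.72, −0.74 and −1.37 in iTBS. Sphk1, a kinase that makes the lipid messenger sphingosine-1-phosphate, had iTBS levels from −1.93 to −1.45, all below the sham levels of −1.17 to −0.58. Nhsl3 did not overlap either, with 0.86, 0.94, 1.16 and 1.10 in sham and 0.13, 0.70, −0.61 and 0.61 in iTBS. Their changes ran from −1.02 for Tsbp1 to −0.64 for Mov10 after quantile normalization and were smaller after normexp, from −0.86 for Tsbp1 to −0.21 for Sphk1. None passed the adjusted threshold in either fit.

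Gabrq and Th stood among the genes the study had selected for its own table of cultured neurons, which marks neither as changed for iTBS at 2 h. Their differences here rested on 1 sham array. Gabrq, the theta subunit of the GABA-A receptor, was at 7.12 on the sham array of pair 3, whereas the other 3 sham arrays lay at 2.68 to 3.61 and the iTBS arrays at 2.41 to 3.79. Th, tyrosine hydroxylase, the first enzyme of dopamine synthesis, was at 6.75 there and at 2.47 to 3.11 elsewhere in sham. Tsbp1, the lower gene of the rule with the largest change, was at 5.72 there and at 2.06 to 2.16 on the other sham arrays.

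Without pair 3 the mean change went from −1.12 to −0.39 for Gabrq, from −0.92 to −0.13 for Th and from −1.07 to −0.23 for Tsbp1. The sham array of the same series at 0 h was also high for Gabrq (5.29) and Th (4.42). On the other 20 iTBS and sham arrays of 0, 2 and 8 h the levels of Gabrq stayed between 2.28 and 3.79. Among the 26014 probes well above background on all 8 arrays, the sham array of pair 3 stood alone at the top of its group, with a spread over 2 log2 units, for 60 probes, against 2 to 18 for the other sham arrays. The iTBS array of pair 4 stood alone at the top of its group for 37 probes. The iTBS array of pair 3 stood alone at the bottom for 34.

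**Figure D3:**
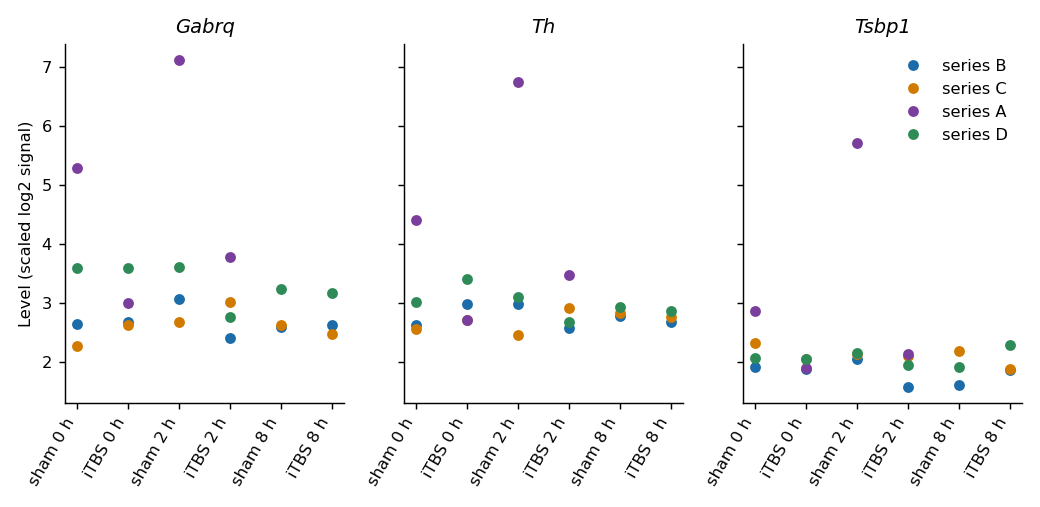
Level (scaled log2 signal) of Gabrq, Th and Tsbp1 on every iTBS and sham array of 0, 2 and 8 h, colored by the series of the sample (series A, B, C and D at 2 h are pairs 3, 1, 2 and 4). The sham array of series A at 2 h stands above all others, with Gabrq at 7.12, and that of 0 h comes next for each gene.

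Most receptor and channel lists had medians near 0. Over all genes, 4.93% were higher and 13.7% lower in every pair, and these shares differ by level as given above. Of 18 ionotropic glutamate receptor genes 1 was higher (Gria2) and 2 were lower in every pair, Grik4 among them (median −0.03), and of 8 metabotropic ones Grm8 was lower in every pair (median −0.06). The AMPA receptor subunit gene Gria3 had a change of −0.03 (95% interval −0.29 to 0.24), and Grm3, a metabotropic receptor, of −0.28 (−0.73 to 0.17). The largest changes of the glutamate receptor lists, 0.56 for the NMDA receptor subunit Grin2d and −0.50 for the metabotropic receptor Grm5, came mainly from pair 3, where they were 1.79 and −1.66.

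Of 26 GABA receptor and handling genes, Gabrb1 was higher and Gabra5, Gabrd and Gad2 were lower in every pair (median 0.10). The background for this and the calcium signaling list was 4.93% higher and 13.7% lower. Gabrd, a subunit of extrasynaptic GABA-A receptors, was at 2.29, 2.34, 2.68 and 2.41 in sham and at 2.06, 2.20, 2.43 and 2.18 in iTBS, lower by 0.14 to 0.25 in each pair (change −0.21, 95% interval −0.47 to 0.05). Gabra4 was higher in pairs 1 and 3 and lower in the others (change 0.11). Among 27 calcium and calmodulin signaling genes, Calm3 was higher and Adcy8, Camk1, Camkk1, Mef2a and Rcan2 were lower in every pair (median −0.06). The kinase genes Camk2b and Camk2g had changes of −0.10 (−0.33 to 0.13) and 0.21 (−0.10 to 0.52), and the calcineurin gene Ppp3cb one of −0.29 (−0.67 to 0.09). A second Camk2b probe had a change of −0.25.

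Voltage-gated sodium and calcium channels had 3 of 22 genes lower in every pair (Cacna1a, Cacna2d3 and Scn4b) and potassium channels 3 of 42 lower and 1 higher, with medians of 0.02 and 0.01. The background for these and the lists that follow was 13.7% lower and 4.93% higher. Scn4b, a sodium channel beta subunit, was lower by 0.37, 0.40, 0.70 and 0.49. Presynaptic release genes (28 tested, 1 higher and 2 lower in every pair, median 0.05) and postsynaptic scaffolds (25 tested, none in either direction, median 0.04) lay near 0. The neuron identity list had Map2 and Prox1 higher and Nefh, Nefl and Wfs1 lower in every pair (25 tested, median −0.01), and the interneuron list Calb1, Gad2, Pvalb and Sp8 lower (18 tested, median −0.02). Prox1, a factor of dentate granule cells, was higher by 0.86, 0.08, 2.30 and 0.01.

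Heat and cold sensing genes are of interest because a stimulating coil can warm a dish. Of the 21 temperature and glucose sensors tested, Hsp90ab1, Hspa8 and Hspe1 were higher and Hspa1a and Hspb1 lower in every pair (background 4.93% and 13.7%). The median was 0.09, and −0.05 after quantile normalization. Hspb1, a small heat shock protein, was at −0.24, 0.69, −0.32 and 1.60 in sham and at −0.72, 0.60, −1.42 and 1.11 in iTBS. Rbm3, a cold-induced RNA-binding protein, was higher by 0.49, 0.83 and 0.50 in pairs 1, 3 and 4 and lower by 0.29 in pair 2, while its second probe had a change of −0.27. Cirbp, which cold induces as well, had a change of 0.08 (−0.19 to 0.35), and its second probe one of −0.25. Txnip, a glucose-responsive inhibitor of thioredoxin, was at 0.29, 4.74, −1.14 and 3.52 in sham and at 0.46, 4.49, −1.01 and 4.04 in iTBS, so that the pairs spanned 5.88 while its change was 0.14 (−0.28 to 0.56).

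Neurotrophins and their receptors had 3 genes higher, among them Ntf4 and Ntrk3, and Bdnf and Ret lower in every pair (16 tested, median −0.13). The background for this list and those that follow was 4.93% higher and 13.7% lower. The brightest Ret probe, for the receptor of glial cell line-derived factors, had a change of −0.62, and a second probe one of −0.20. Endoplasmic reticulum stress genes had a median of −0.08 (21 tested, 0 higher and 2 lower in every pair), and Eif2ak3, which encodes the stress kinase PERK, was lower by 0.30, 0.15, 0.46 and 0.12. Lysosomal genes had a median of 0.0022 (24 tested, 1 higher and 3 lower), cholesterol synthesis genes of 0.05 (20 tested, Fdft1 higher and 1 gene lower) and cell cycle genes of −0.06 (24 tested, 1 higher and 3 lower). In the study's own table of cultured neurons, 49 genes were tested, with 3 higher and 5 lower in every pair and a median of −0.0012. That list was chosen by the study on these samples and is no independent evidence. For iTBS at 2 h the study's table marks Apoe, Camk2b, Camk2g, Eif2ak3, Gabra4, Gabrd, Gria3, Grm3, Ppp3cb and Tnfrsf1a as lower. Of these, Apoe, Camk2g, Gabra4 and Tnfrsf1a had a mean change above 0 here and the others one below 0. It also marks Grm7 as lower and Shank3 as higher, whose changes are not given here.

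Glial and immune genes did not move as one. The microglial list had a median of 0.25 (0.32 after quantile normalization and 0.10 after normexp). It had 3 of 17 genes higher in every pair (C1qa, C1qb and Fcgr3a) and none lower (background 4.93% and 13.7%). Its median level was −2.06, and 7 of the 17 were well above background on all 8 arrays. C1qb, a subunit of complement C1q, was equal in pairs 1 and 2 to within 0.02 and higher by 0.95 and 0.45 in pairs 3 and 4. Complement and cytokine genes had a median of −0.18, with 2 of 26 higher and 4 lower in every pair (C1r, C1s, C2 and C3ar1), against 4.93% and 13.7% of all genes. C2, which is cut to form the C3 convertase, was at −0.92, −1.31, −0.08 and −0.09 in sham and at −1.76, −1.73, −1.48 and −0.56 in iTBS (change −0.78, adjusted p = 0.39 with the block).

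Of 20 astrocyte genes, Apoe and Aldoc were higher and 6 lower in every pair (median −0.05). The background for this list and those that follow was 4.93% higher and 13.7% lower. Apoe, the main lipid carrier of the brain, was among the brightest genes. It was higher by 0.44, 0.22, 1.00 and 0.39 on the z-score scale and lower in every pair after quantile normalization, by 0.27 on average. Oligodendrocyte lineage genes had 3 of 18 higher (Gpr17, Mbp and Pdgfra) and Mog lower (median 0.12), and endothelial, mural and fibroblast genes 4 of 26 lower (Pecam1, Postn, Rgs5 and Tagln; median −0.13). Tnfrsf1a, a receptor of tumor necrosis factor, had a change of 0.04 (−0.20 to 0.27).

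**Figure D4:**
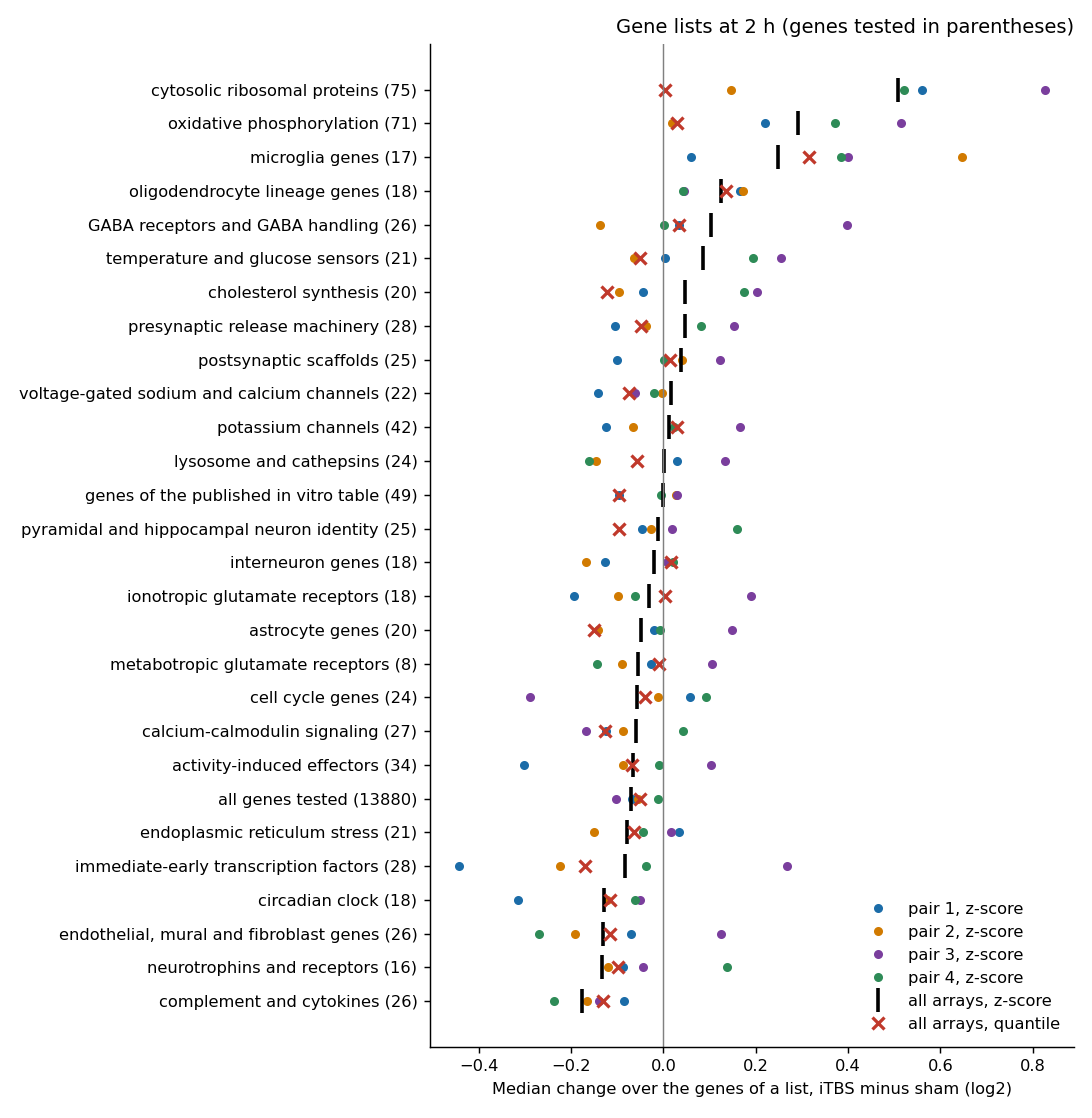
Median log2 change (iTBS minus sham at 2 h) over the tested genes of each list, with 1 colored point per pair and a black bar for all arrays on the z-score scale, and a red cross for all arrays after quantile normalization. Ribosomal genes (0.51 against 0.00) and oxidative phosphorylation genes (0.29 against 0.03) move most between the scalings, and no list median lies farther than 0.32 from 0 after quantile normalization.

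The change at 2 h was also set against the change at 0 h (4 iTBS and 4 sham arrays) and at 8 h (3 and 3). No probe differed between 2 h and 0 h at an adjusted p under 0.05 (0 of 35688, 0%; 213, 0.597%, at an unadjusted p under 0.05), nor between 2 h and 8 h (0%; 819, 2.29%, unadjusted), and none did with the replicate block (759, 2.13%, and 4355, 12.2%, unadjusted) or with 1 term per sample series (396 and 2379 unadjusted). Fosb had a change of −0.62 at 0 h, −0.96 at 2 h and 0.27 at 8 h. Junb had −0.96, −0.65 and 0.43 at these times, and Klf2 −0.64, −0.69 and 0.63. Nr1d1 had −0.54 at 0 h, −0.77 at 2 h and 0.25 at 8 h. The immediate-early list had medians of −0.14, −0.08 and 0.14, and the ribosomal list of 0.62, 0.51 and −0.32. The values at 8 h have the opposite sign, but the differences from 2 h did not pass the test (for Ciart, with −0.98 at 2 h and 0.97 at 8 h, adjusted p = 1.0 by limma). The brightness of the arrays differed between the times too. The 75th percentile of the signal at 8 h was higher for iTBS than for sham in series B (3539 against 3064) and D (7429 against 3471) and lower in C (4906 against 5864), and series A has no array at 8 h. At 0 h the iTBS array was the dimmer one in series B, C and D and the brighter one in series A (4020 against 3878). In series A at 0 h the changes of the bright genes Actg1, Hspa8 and Apoe were 0.92, 0.75 and −0.001. The part of array brightness in these time courses was not tested.

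The 1 Hz protocol, in which single pulses come at an even pace, shares the sham arrays of 2 h with iTBS, and its 2 usable arrays came from series C and D alone. Its change was −1.65 for Fosb, −1.32 for Fos, −2.35 for Npas4 and −1.78 for Arc, against −0.96, −0.35, −0.64 and −0.31 after iTBS. Since the levels of these genes differed between the series by several log2 units, as for Fos at −1.08 in the sham of series C and 4.11 in that of series A, the values stand side by side with no comparison. Nr1d1 had a change of 0.07 after 1 Hz.

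**Figure D5:**
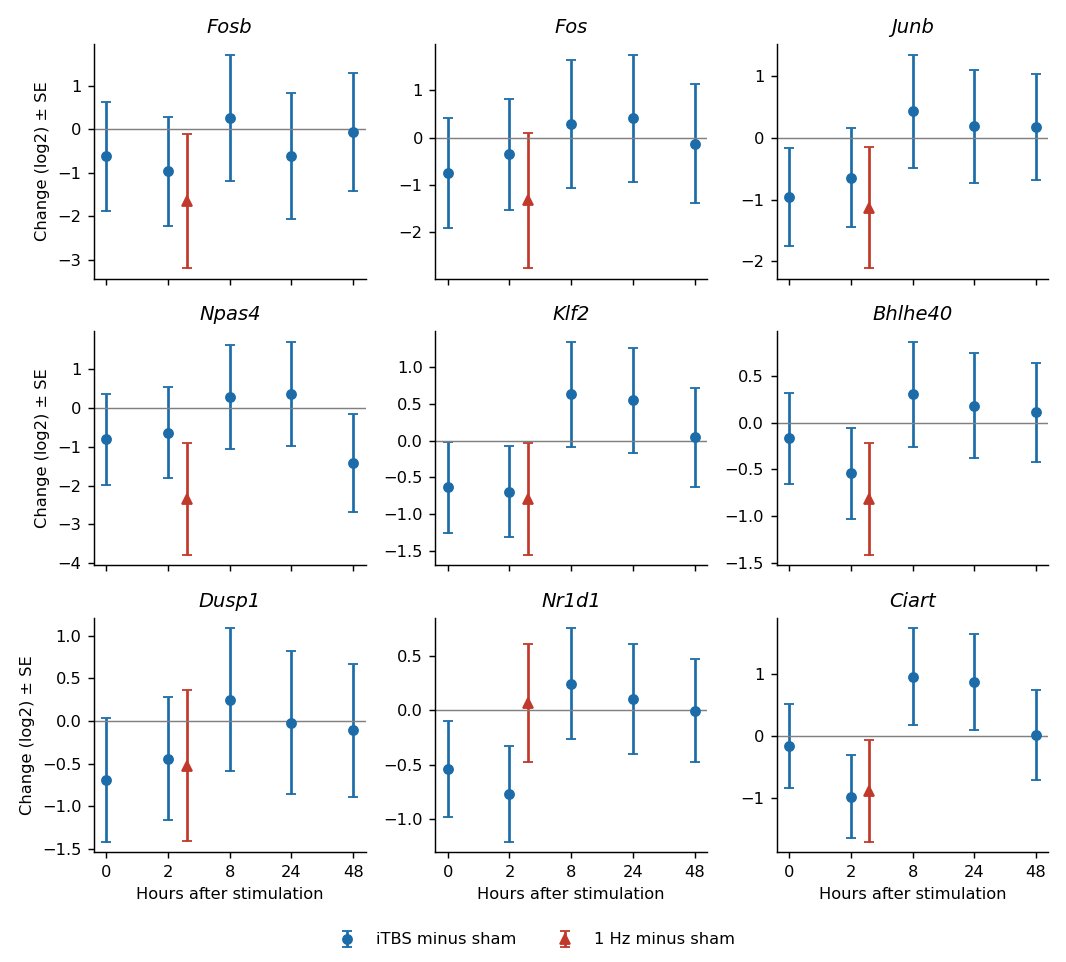
Log2 change against sham (y axis, ± SE of the limma fit) of the same 9 genes at the 5 times after iTBS, from 0 to 48 h and drawn at even spacing (blue circles), and at 2 h after 1 Hz (red triangle, 2 arrays, same sham arrays). The 9 genes were picked because they were lower in every pair at 2 h, which fixes their sign there. All 9 values lie above 0 at 8 h, but the share of all genes above 0 at 8 h was not computed. The median over all genes was −0.07 at 2 h and 0.02 at 8 h. For 5 of the 9 the SE at 2 h exceeds the change, as for Fosb (−0.96).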

How the data were processed

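Total RNA was labeled with Cy3 and hybridized to 1 array per sample. The deposited scanner files give a processed signal per spot, a background-corrected intensity that the authors extracted with Feature Extraction 12.0.3.1 and left unnormalized between arrays. The authors also deposited a z-score per spot, and the log-transformed intensities gave the same scores to within 0.005. These scores were averaged per probe here, without outlier spots. The files name build rn4, and gene symbols came from RefSeq (GRCr8) through unversioned accessions (21102 of 45598 probes). The members and gene lists were chosen with earlier results of these data known.

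Outlier and control spots were left out, 420 probes without a value on a usable array were dropped, and 9490 probes well above background on fewer than 3 arrays were not tested. 1 other array (1 Hz, 2 h, replicate 2) was excluded because its grid was off the spots. Group means on 55 arrays were fitted with limma 3.58.1 in R 4.3.3, without a covariate, and the p-values were two-sided with Benjamini-Hochberg adjustment. The probe with the highest mean stood for a gene. Genes were named if they passed, if they were among the 10 largest changes per direction under the rule given with them, from a fixed set, or as up to 3 of the largest changes of a list, and list members moving one way in every pair were named after their values were seen. Deviations of same-numbered samples from their group means correlated by 0.436 to 0.662, so the replicate numbers pair the samples, and the fit with the replicate block (1 term for each sample series and time, since at 0 h the numbers and the series differ) is given beside the results. Intervals in the report come from that fit. Scripts were tested on simulated data. The number of arrays limits the precision. Alternatives were other scalings, filters, sets of arrays and blocks, and leaving out each array. The files hold no mean signal, so the normexp correction used the median signal. A few genes are not reported here.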

Additional observations from a re-analysis of the deposited data

Results flagged for a closer look

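In 110 groups of 4 arrays (55 genes, sham and iTBS), 3 held an array far from the other 3 relative to the group's range, where chance gives about 5% of groups. These were Tsbp1 on the sham array of replicate 3 (ratio 0.971), Cirbp on the iTBS array of replicate 2 (0.887, at a level of 7.08) and Eif2ak3 on the sham array of replicate 4 (0.841).

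For 8 of these 55 genes all 4 pairs were lower at 2 h and all 3 pairs were higher at 8 h. Part of the 55 were picked because all 4 pairs moved one way at 2 h. Of all genes 13.7% were lower in all 4 pairs at 2 h, and the share also higher at 8 h was not computed. The changes at 2 h and 8 h were −0.35 and 0.33 for Bdnf, −0.54 and 0.30 for Bhlhe40, −0.98 and 0.97 for Ciart, and −0.65 and 0.43 for Junb. They were −0.44 and 0.27 for Penk, −0.41 and 0.33 for Per2, −0.75 and 0.43 for Sphk1, and −0.74 and 0.47 for Tgm1. The difference of direction itself was not tested apart from the limma comparison of the changes, which none of them passed.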

How the results depend on the processing

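The count of probes past the adjusted threshold at 2 h was 0 under each alternative run except without the sham array of replicate 4 (0 to 1 over the arrays left out singly), where the unnamed probe A_44_P1139059, well above background on 3 of the 8 arrays, passed. The replicate block changed no call, with 0 probes on 8 arrays and 0 on all arrays. For 2 h against 8 h, 1 probe passed after quantile normalization, Endou, which was well above background on 0 of the 8 arrays. The published criteria, as applied here, gave 0 to 26 probes without single arrays. Ribosomal genes higher in every pair (66) numbered 29, 3 and 13, and oxidative phosphorylation genes (27) 8, 4 and 7, with 75th percentile scaling, quantile normalization and normexp. Immediate-early factors lower in every pair (8) numbered 5 with 75th percentile scaling. With 1 pair left out these counts were 66 to 72, 27 to 52 and 8 to 13, read against the shares of all genes given with them above. The scalings of the list counts, the omitted pairs and the blocked fits with other scalings were chosen after seeing the data.

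Of 45 named genes, 27 kept their direction under each alternative run and 18 did not. Quantile normalization gave −0.27 for Apoe, −0.10 for Cirbp, 0.0049 for Egr1 and −0.0662 for Nr4a1, normexp gave −0.17 for Apoe, −0.0747 for Camk2g and −0.071 for Nr4a1, and the 75th percentile gave −0.0612 for Cirbp and −0.0588 for Nr4a1, with the same values under the replicate block. The deposited z-scores gave −0.0418 for Nr4a1 and −0.0203 for Tnfrsf1a, and the slide as a block 0.0412 for Camk2b and 0.11 for Egr1. Blocked fits gave 0.068 for Egr1 without pair 1, 0.0417 for Egr1, 0.0457 for Gria3 and −0.0556 for Nr4a1 without pair 2, −0.0052 for Gabra4, −0.093 for Nr4a1 and −0.12 for Tnfrsf1a without pair 3, and 0.0118 for Egr1 without pair 4. Leaving out single arrays, which breaks a pair, changed the direction of 15 genes, with the ranges Arc −1.03 to 0.31, Bdnf −1.04 to 0.25, Camk2b −0.23 to 0.0655, Dusp1 −0.99 to 0.13, Egr1 −0.74 to 0.63, Fos −1.36 to 0.62, Gabra4 −0.10 to 0.34, Gria3 −0.18 to 0.0747, Homer1 −0.0405 to 0.19, Junb −1.23 to 0.0027, Npas4 −1.78 to 0.49, Nptx2 −0.60 to 0.14, Nr4a1 −0.64 to 0.56, Tnfrsf1a −0.26 to 0.22 and Txnip −0.86 to 1.14. The causes were not tested. The spread between pairs limits what 4 arrays a group can show, and dim probes have levels near background.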
